A study of Mus musculus with 36 samples.

Results

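Lztr1, Cul3 and Rit1 encode an adaptor, a scaffold and a substrate of a ubiquitin ligase that acts on RAS-family GTPases, and Lztr1 carries an intron of the minor class, whose human counterpart is a known target of the splicing factor ZRSR2. Their introns were taken as every intron in the per-library tables that matched an annotated GENCODE M21 intron of these genes, which gave 42 of 219945 listed introns (mm10). Lztr1 (chromosome 16, 17508688 to 17526333, plus strand) had 21 of its 27 annotated introns listed. Cul3 (chromosome 1, 80264923 to 80340480, minus strand) had 15 of 20, and Rit1 (chromosome 3, 88716838 to 88731049, plus strand) had 6 of 9.

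LZTR1 binds RAS-family GTPases through its kelch repeats and binds CUL3 through its BTB domains. CUL3 is the elongated scaffold that brings such an adaptor, with its substrate, to the RING protein RBX1 and a ubiquitin-loaded E2 enzyme, and it is switched on by attachment of the ubiquitin-like protein NEDD8. RIT1 is a small GTPase of the RAS family and a main substrate of LZTR1, and changes in the genes for LZTR1 and RIT1 are known causes of Noonan syndrome, a disorder of RAS signalling. ZRSR2 recognises the 3′ splice site of minor-class introns, which are spliced by a separate, low-abundance spliceosome; it is mutated in myelodysplastic syndromes, and mouse Zrsr1 is its close relative. The data are RNA only, so the protein level at which LZTR1 acts on RIT1 was not measured.

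Polyadenylated RNA was measured in 36 libraries from C57BL/6 mice. Common myeloid (CMP), granulocyte-monocyte (GMP) and megakaryocyte-erythroid (MEP) precursors were sorted from 3 Zrsr2-deficient (KO) and 3 wild-type (WT) male littermates, and fibroblasts (MEF) were prepared from 3 KO and 3 WT male embryos. Lin-Kit+ bone marrow cells, which lack lineage markers and carry the receptor Kit, came from KO or WT mice, were transduced with 1 of a pair of hairpin RNAs against Zrsr1 (sh1 or sh10) or with a control hairpin, and were cultured ex vivo in 2 experiments. How old the animals were, how the Zrsr2 deficiency was made or whether the Lin-Kit+ libraries of the 2 experiments came from different mice is not given. If they do not, p-values for those cells measure only the spread between cultures.

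The deficiency was visible in every group. Levels are given as CPM, the spliced counts of a gene scaled by the library's total. Zrsr2 had 0 to 0.08 CPM in KO precursors and 23.8 to 34.2 CPM in WT precursors, and at most 1.52 CPM in KO Lin-Kit+ cells, against at least 19.2 CPM in WT Lin-Kit+ cells. In MEF it had at most 0.460 CPM in KO embryos and at least 23.7 CPM in WT embryos, and although its log2 change was −6.54 it was not called there (edgeR adjusted p = 0.9999), nor between KO and WT Lin-Kit+ control cells (−4.77; edgeR adjusted p = 1). Zrsr1 has no listed intron, so the effect of the hairpins on their own target was not checked. Marker sums followed the labels of the sorted cells and fibroblasts, with summed granulocyte-monocyte markers of 25520 to 30790 CPM in GMP and fibroblast markers of 62060 to 88530 CPM in MEF. Single markers did so less evenly. Between WT GMP and WT CMP, 5 of 7 granulocyte-monocyte markers had a positive change. Of 6 megakaryocyte-erythroid markers, 1 was called higher and 5 lower in that comparison, where 24.8% of all genes were called. Each library held 30481450 to 84832431 spliced reads. The share of introns with reads at 1 of the ends only was 24.6% to 31.0% in the second Lin-Kit+ experiment, against 7.44% to 17.2% in the other libraries.

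The sequence of Lztr1 intron 18 marks it as a minor-class intron. An intron was classed as minor where, on the gene's strand, bases 2 to 8 matched TATCCTT with at most 1 mismatch after a first A or G, its final 2 bases were AG or AC, and CCTTAAC lay within its last 40 bases with at most 1 mismatch. Both ends could be read from transcripts for 10103 listed introns, and 51 of these passed. Intron 18 (chromosome 16, 17524458 to 17525238, 781 bases, after 2210 coding bases) was the only member intron that passed. In Lztr1, both ends could be read only for introns 14, 16, 18 and 20, so its other introns were not classed. In Rit1 they could be read for introns 2 and 4 and for the intron that skips exon 2. The ends of Lztr1 intron 18 are shown with those of introns 14, 16 and 20 of Lztr1 and intron 2 of Rit1, which were read to the same length and did not pass. Capitals mark the first 8 bases at a 5′ end and, at a 3′ end, the 7 bases that come closest to CCTTAAC, and all are written 5′ to 3′ on the plus strand from the GENCODE M21 transcripts that retain the intron.
Lztr1 intron 18, 5′ end (chr16:17524458-17524477): GCATCCTTttacatgttggt
Lztr1 intron 14, 5′ end (chr16:17522724-17522743): GTCTGCCTgggacatgggtg
Lztr1 intron 16, 5′ end (chr16:17523434-17523453): GTAGGGAAcctctcttcctg
Lztr1 intron 20, 5′ end (chr16:17525504-17525523): GTCAGGCTctggccccagtg
Rit1 intron 2, 5′ end (chr3:88717471-88717490): GTAGGTAAccatttctgttt
Lztr1 intron 18, 3′ end (chr16:17525199-17525238): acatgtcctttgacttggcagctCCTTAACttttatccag
Lztr1 intron 14, 3′ end (chr16:17522928-17522967): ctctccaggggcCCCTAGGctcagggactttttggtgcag
Lztr1 intron 16, 3′ end (chr16:17524056-17524095): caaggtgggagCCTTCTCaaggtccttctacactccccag
Lztr1 intron 20, 3′ end (chr16:17525637-17525676): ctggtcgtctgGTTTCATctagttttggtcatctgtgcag
Rit1 intron 2, 3′ end (chr3:88717562-88717601): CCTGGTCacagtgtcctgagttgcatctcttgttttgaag

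Lztr1 intron 18 begins with GC and has 1 mismatch to TATCCTT, and it holds CCTTAAC with 0 mismatches, 10 bases before its end. Introns 14, 16 and 20 begin with GT, with 3, 5 and 5 mismatches to the 5′ motif, and their closest 7 bases in the last 40 have 3, 2 and 4 mismatches to CCTTAAC. Rit1 intron 2 begins with GT and has 5 mismatches to the 5′ motif and 3 to CCTTAAC. No Cul3 intron could be read at its ends, so none of them was classed. A match describes these letters only.

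Retention was measured as the mis-splicing index (MSI), the percent of reads at the intron's ends that run from exon into intron, with a spliced read counted once for each end. Values of KO and WT cells overlapped for Lztr1 intron 18 in CMP, GMP and MEF, and KO values were the higher ones in MEP. In CMP, intron 18 had an MSI of 13.1%, 8.27% and 16.3% in the 3 KO mice, and of 16.0%, 9.42% and 21.4% in the 3 WT mice. The groups overlapped, and both spread widely from mouse to mouse. In GMP the values were 13.9%, 13.3% and 7.66% in KO mice and 14.6%, 7.32% and 9.81% in WT mice, again with overlap. In MEP the values of Lztr1 intron 18 were 10.03%, 14.96% and 8.53% in KO mice, all above the 6.44%, 6.76% and 6.77% in WT mice. Introns 3 and 12 of Lztr1 and introns 1 and 2 of Rit1 also did not overlap in MEP, with KO values the lower ones. Lztr1 intron 12, for example, had 0.98% to 2.10% in KO and 2.76% to 4.20% in WT mice. The share of all introns without overlap was not computed in any comparison. In MEF, KO embryos had 4.46%, 5.47% and 4.29%, and WT embryos had 5.08%, 5.71% and 5.36%, the lowest levels among the sorted and embryonic cells.

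**Figure D1:**
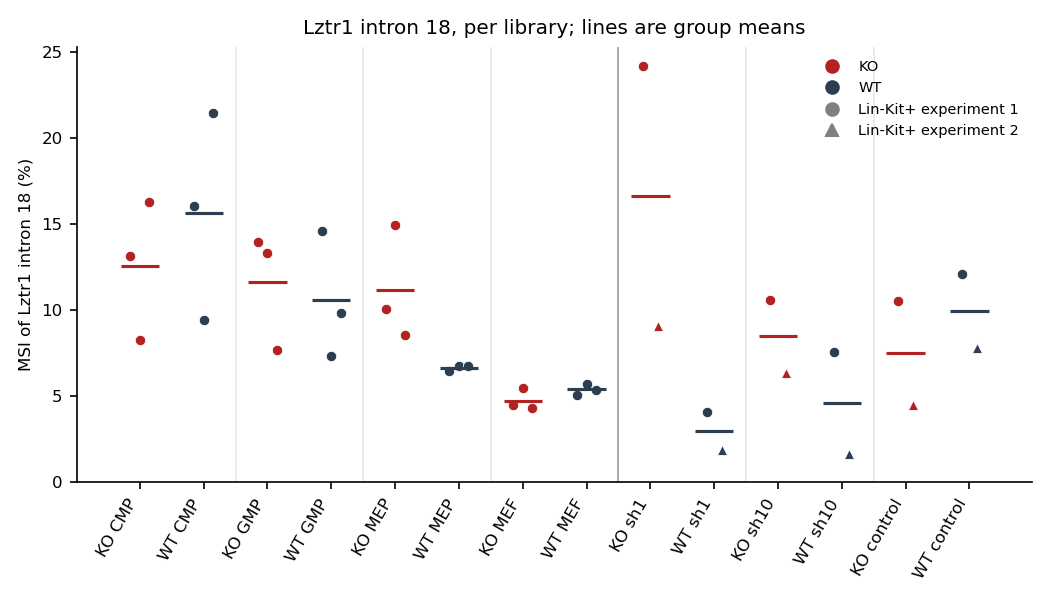
MSI (%) of Lztr1 intron 18 in each library, with KO in red and WT in dark blue, group means as lines, and Lin-Kit+ experiments 1 and 2 as circles and triangles. The KO MEP libraries sit at 8.53% to 14.96%, above the WT MEP libraries at 6.44% to 6.77%, while the genotypes overlap in CMP, GMP and MEF.

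No KO-minus-WT difference of intron 18 passed the threshold of an adjusted p of 0.05. The change of the log2 ratio of exon-intron to spliced reads, estimated in limma, was −0.34 in CMP (SE 0.46, 95% interval −1.23 to 0.55) and 0.16 in GMP (SE 0.46, −0.73 to 1.05), with adjusted p of 0.958 and 0.999 in edgeR's test over 62446 introns. In MEP it was 0.78 (SE 0.46, −0.12 to 1.67), below 0.05 before Benjamini-Hochberg adjustment in edgeR but not in limma, and with an adjusted p of 1 in both; without KO MEP replicate 2 it was 0.51. In MEF it was −0.20 (SE 0.27, −0.72 to 0.33; edgeR adjusted p = 0.999 over 32573 introns). Few introns of the transcriptome were called in these comparisons either: 0.00641% in CMP, 0.00801% in GMP, 0.0048% in MEP and 0% in MEF, where 1397 introns had an unadjusted edgeR p under 0.05 and limma called 0. The intervals pass a log2 change of 1 in size in CMP, GMP and MEP, and that of MEF reaches −0.72, so equal retention is not shown in any of these cell types.

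The ends of the intron differed in MEP. At the 5′ end, KO MEP libraries had 36, 53 and 20 exon-intron reads of Lztr1 intron 18 and WT MEP libraries had 12, 10 and 11. At the 3′ end, KO MEP libraries had 57, 61 and 41 reads and WT MEP libraries had 51, 46 and 56. With reads of the 5′ end alone the change was 1.87 (SE 0.51; edgeR adjusted p = 0.899), and with reads of the 3′ end alone it was 0.33 (SE 0.50; edgeR adjusted p = 1). The KO effect in MEP exceeded that in CMP by 1.12 (SE 0.64; edgeR adjusted p = 0.864), where 0.0016% of introns were called.

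Over separate animals, the KO-minus-WT difference of means had opposite signs in mice and embryos, and the genotypes overlapped in both. The log2 ratio of intron 18, averaged over the 3 precursor types of a mouse, had a mean of −1.95 in KO mice and −2.14 in WT mice. WT mouse 2 was the lowest at −2.56, and the other mice lay between −2.12 and −1.83. In embryos the mean was −3.32 in KO (−3.46 to −3.10) and −3.12 in WT (−3.21 to −3.04). The summed difference was 0.0005, with p = 1 in an exact stratified permutation test (two-sided, 400 arrangements, smallest possible p 0.005). Its parts of 0.198 in mice and −0.197 in embryos cancel, so this test cannot show equal retention in mice, in embryos or in a single precursor type. Leaving out single animals moved the sum from −0.208 to 0.110.

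Most other classed minor introns had a positive KO-minus-WT change in precursors, and intron 18 lay at different places among them. In CMP, 37 of 46 other minor introns had a positive KO-minus-WT change (median 0.50), and 42 of the 46 lay above intron 18. The median of the 7041 classed introns that did not meet the minor rule was 0.08 in CMP. In GMP the minor median was 0.36 with 31 of 46 above intron 18, and in MEP it was 0.33 with 13 above. In MEF the median of 42 other minor introns was 0.09, and 32 lay above intron 18.

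**Figure D2:**
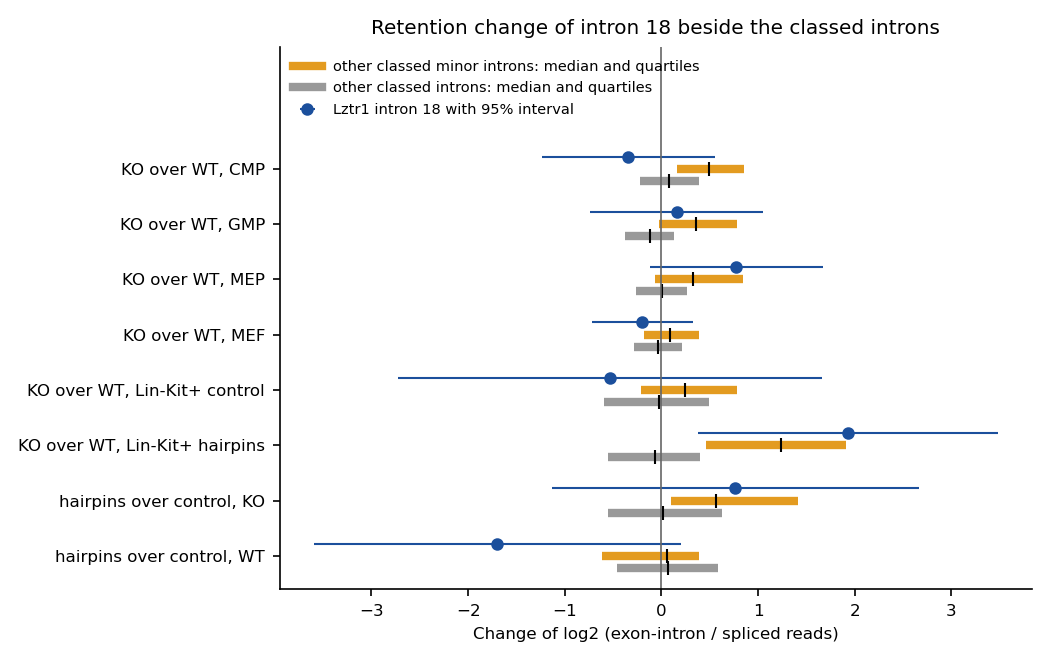
Change of the log2 ratio of exon-intron to spliced reads for Lztr1 intron 18 (blue, with 95% interval), for the other classed minor introns (orange) and for the other classed introns (grey), the last 2 as medians with quartiles. In CMP intron 18 is at −0.34, left of the minor median of 0.50, and in Lin-Kit+ cells with Zrsr1 hairpins it is at 1.93, right of the minor median of 1.24.

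In Lin-Kit+ cells, intron 18 was more retained in KO cells with Zrsr1 hairpins than in WT cells with the same hairpins within each experiment, but the difference did not pass adjustment. In experiment 1 the MSI was 24.2% with sh1 and 10.6% with sh10 in KO cells, and 4.08% with sh1 and 7.56% with sh10 in WT cells. In experiment 2 it was 9.09% with sh1 and 6.36% with sh10 in KO cells, and 1.84% with sh1 and 1.62% with sh10 in WT cells. With the control hairpin, Lztr1 intron 18 stood at 10.5% and 4.47% in KO cells and at 12.1% and 7.78% in WT cells in experiments 1 and 2. Values of experiment 2 were lower throughout, and 6 to 39 exon-intron reads stood behind each of them, against 20 to 100 in experiment 1.

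The KO-minus-WT change of the log2 ratio with Zrsr1 hairpins was 1.93 (SE 0.79, 95% interval 0.38 to 3.48), 1.70 within experiment 1 and 2.16 within experiment 2. edgeR gave an adjusted p of 0.998 over 46630 introns, of which 0% were called, with 1329 at an unadjusted edgeR p under 0.05 and 0 called by limma, and an adjusted p of 0.543 with the experiment as a replicate block. Leaving out single libraries kept the change between 1.37 and 2.50. With reads of the 5′ end alone it was 0.9993, and with reads of the 3′ end alone 3.21; in WT cells of experiment 2 the 3′ end held 0 reads with sh1 and 2 with sh10 in Lztr1 intron 18. Among the 46 other minor introns 39 had a positive change (median 1.24), and 11 lay above intron 18. KO cells with hairpins minus WT cells with the control hairpin gave only 0.23 for intron 18, which was not called. There the median of the 46 other minor introns was 0.75, and 34 lay above intron 18.

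With reads of both ends summed, the changes of intron 18 with hairpins had opposite signs in KO and WT cells. In KO cells the hairpins-minus-control change of intron 18 was 0.77 (SE 0.97; edgeR adjusted p = 0.998), with 0.72 and 0.81 within experiments 1 and 2. In WT cells it was −1.70 (SE 0.97; edgeR adjusted p = 0.999), with −1.21 and −2.19. With reads of the 5′ end alone the change in WT cells was 0.79, so its sign depended on the end. The difference between the genotypes was 2.46 (SE 1.37; edgeR adjusted p = 0.999). These comparisons share control and hairpin libraries. Their fits had no block for the experiment, so each SE also holds the spread between experiments. Neither the change in KO cells nor that in WT cells was called in any setting, with the block included. KO cells with the control hairpin minus their WT counterparts gave −0.53 (SE 1.12, −2.73 to 1.66; edgeR adjusted p = 0.9998), with −0.23 and −0.84 within the experiments.

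Marker sums of the common myeloid and granulocyte-monocyte stages were lower with the hairpins in both genotypes, and edgeR without a block called 0 of these markers. Of 5 common myeloid and stem markers 4 have listed introns, and their summed CPM was 49.4 to 93.2 with Zrsr1 hairpins and 155.8 to 257.5 with the control hairpin. The 7 granulocyte-monocyte markers summed to 1276 to 4435 CPM with Zrsr1 hairpins and to 5010 to 6297 CPM with the control hairpin, while 3 of the 7 genes had a positive change in each genotype. The 6 megakaryocyte-erythroid markers overlapped, at 92.2 to 271.0 CPM with Zrsr1 hairpins and 141.2 to 279.3 CPM with the control hairpin, with a positive change of 5 of the 6 genes in KO cells and 3 of 6 in WT cells. No marker of these lists was at 0 in any Lin-Kit+ group. The 7 fibroblast markers summed to 35.5 to 147.0 CPM with Zrsr1 hairpins and 40.3 to 85.8 CPM with the control hairpin, with 0 to 3 of them at 0 in a library. The part of these genes in the retention and level values was not tested. In such bulk samples, fewer cells of a type and less RNA per cell cannot be told apart.

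Along Lztr1, intron 18 was not the most retained intron. It ranked between position 2 of 20 in KO cells with sh1 and position 10 of 20 in KO MEF, WT MEP and WT Lin-Kit+ cells with sh1. Intron 6 led in every precursor group, with 32.8% ± 8.7 in KO CMP and 34.2% ± 5.8 in WT CMP (SD, n = 3 each). Intron 20, the last of the gene, led in MEF and Lin-Kit+ cells, with 15.9% ± 3.2 in KO MEF and 14.4% ± 0.9 in WT MEF (SD, n = 3 each). Intron 14 had 22.2% ± 4.3 in KO CMP and 25.7% ± 4.3 in WT CMP (SD, n = 3 each). Introns 1, 2, 4 and 5, near the start of the gene, stayed under 1% in every group mean. Across all libraries the spliced reads of introns 17, 18 and 19 were alike in number, at 11191, 11179 and 10941.

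**Figure D3:**
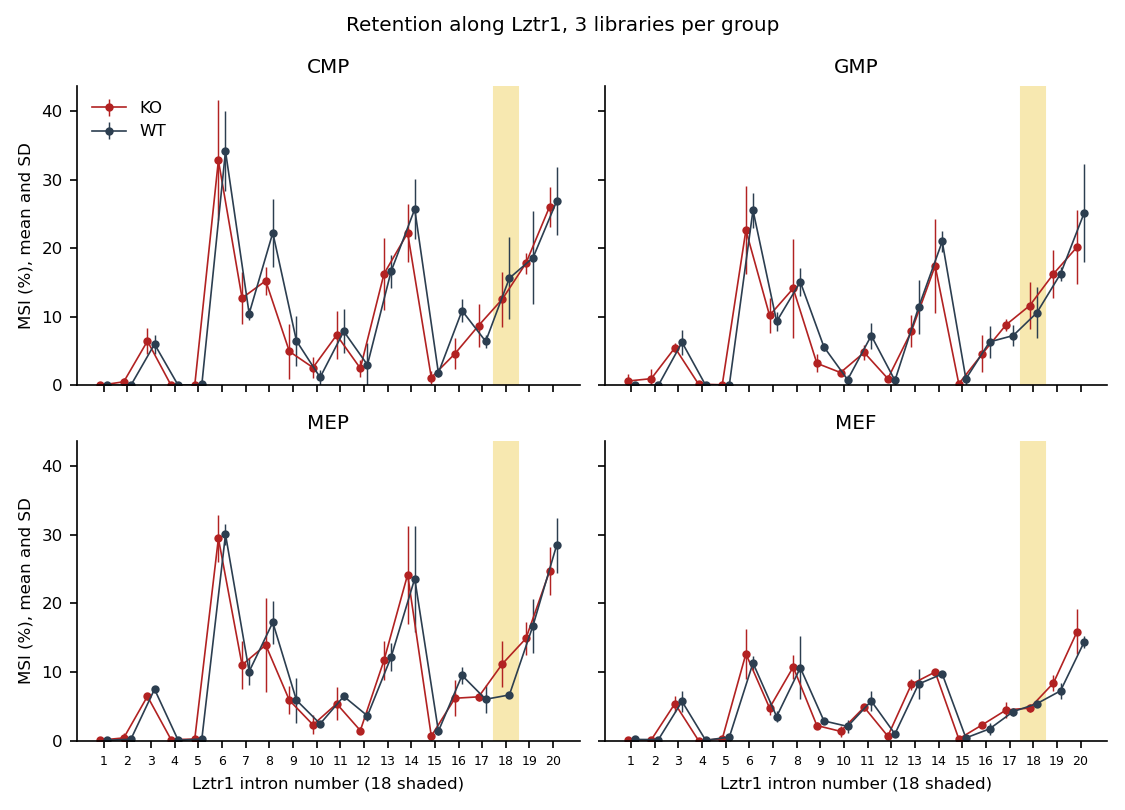
MSI (%, mean and SD of 3 libraries) of the 20 numbered introns of Lztr1 in CMP, GMP, MEP and MEF, with KO in red and WT in dark blue and intron 18 shaded. Introns 6, 14 and 20 stand above intron 18 in every panel, and intron 18 is at 11.2% in KO and 6.66% in WT in MEP.

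No member intron was called in any comparison of genotypes, hairpins or cell types. The filter on low counts left 29 of the 42 introns tested in precursors (17 of Lztr1, 9 of Cul3, 3 of Rit1), 21 in MEF and 24 in Lin-Kit+ cells. For the KO comparison, 1 of the 29 had an unadjusted edgeR p under 0.05 with CMP, 0 with GMP and 1 with MEP. Such values were common, since 3845 (CMP), 1690 (GMP) and 2531 (MEP) of all 62446 tested introns had them. The member intron in CMP was intron 16 of Lztr1, not of the minor class. Its MSI was 6.47%, 2.14% and 5.24% in KO mice and 10.9%, 9.19% and 12.6% in WT mice. The groups did not overlap, and the change of Lztr1 intron 16 was −1.44 (SE 0.53; edgeR adjusted p = 0.573). In MEP intron 16 had 6.18% ± 2.64 in KO and 9.51% ± 1.26 in WT mice (SD, n = 3 each), with overlap.

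Cul3 transcripts kept little intron. The highest group mean of any numbered Cul3 intron was 2.78%, for intron 8 in WT CMP, against 2.11% in KO CMP. Over all libraries and introns Cul3 had 3340 exon-intron reads on 269197 spliced reads, and Lztr1 had 30609 on 176895. Exons of the gene Gm37262 lie in Cul3 intron 1 on the same strand, so reads there may belong to either gene. Cul3 intron 15 had the highest change among member introns in WT Lin-Kit+ cells with hairpins against control, 2.97 (SE 0.83; edgeR adjusted p = 0.999), on 3 exon-intron reads in the control libraries.

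Rit1 intron 2 was the most retained numbered intron of Rit1, with group means of 6.04% to 10.7%. In MEP it had 6.75% ± 0.35 in KO and 8.37% ± 0.70 in WT mice (SD, n = 3 each), without overlap, a change of −0.32 (SE 0.40; edgeR adjusted p = 1). Of its exon-intron reads 91.0% lay at the 3′ end. Exons of Gm17146 lie in Rit1 intron 3.

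Skipping of single exons was read from listed introns that join exons further apart. Lztr1 exon 3, of 57 bases, was skipped in 19.1% to 38.1% of transcripts over the 36 libraries, from 2832 skipping reads. A share is the skipping reads over their sum with the mean of the flanking spliced reads. KO CMP had 24.3% ± 4.8 and WT CMP 28.1% ± 1.0, KO GMP had 26.8% ± 1.2 and WT GMP 24.9% ± 5.0, and KO MEP had 26.2% ± 1.2 and WT MEP 27.6% ± 2.4 (SD, n = 3 each). KO MEF had 26.2% ± 3.1 and WT MEF 26.5% ± 2.1. The genotypes overlapped in each of these cell types, and 57 bases are a whole number of codons.

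Cul3 exon 2, of 198 bases, was skipped in 0% to 9.73% of transcripts on 319 reads in all. KO GMP had 3.25% to 4.09% and WT GMP 1.28% to 2.50%, without overlap, while the ranges overlapped in CMP, MEP and MEF. With the control hairpin, KO Lin-Kit+ cells had 0% to 0.835% and WT Lin-Kit+ cells 2.34% to 3.18%, without overlap and in the opposite direction. Rit1 exon 2, of 145 bases, was skipped in 0% to 6.36% on 101 reads. KO MEP had 1.72% to 6.36% and WT MEP 0% to 1.61%, and KO MEF had 1.02% to 1.99% and WT MEF 2.12% to 3.03%, neither with overlap and in opposite directions. These shares rest on 0 to 23 skipping reads a library and were not tested.

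Levels of Lztr1, Cul3 and Rit1 overlapped between KO and WT cells in CMP, GMP, MEP and MEF. Lztr1 had 90.1, 91.9 and 77.4 CPM in KO CMP, and 84.0, 87.4 and 77.1 CPM in WT CMP. In GMP it averaged 79.2 ± 4.9 CPM in KO and 82.1 ± 5.3 CPM in WT mice, in MEP 98.4 ± 5.2 CPM in KO and 97.7 ± 9.6 CPM in WT mice, and in MEF 149.9 ± 16.6 CPM in KO and 147.3 ± 3.6 CPM in WT embryos (SD, n = 3 each). The genotypes overlapped in all 4 cell types. Log2 changes of Lztr1 were 0.05 (95% interval −0.11 to 0.21) in CMP, −0.05 (−0.21 to 0.11) in GMP, −0.02 (−0.17 to 0.14) in MEP and 0.04 (−0.15 to 0.23) in MEF, with edgeR adjusted p of 0.993 to 1. Of all genes 0.0228% were called in CMP, 0.0171% in GMP, 0.0456% in MEP and 0% in MEF, where 265 genes had an unadjusted edgeR p under 0.05 and DESeq2 called 12.

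Cul3, the scaffold, had 157.4, 165.3 and 153.4 CPM in KO CMP and 159.2, 190.1 and 179.0 CPM in WT CMP. Its log2 change was −0.16 in CMP (SE 0.09, −0.33 to 0.01; edgeR adjusted p = 0.836), 0.06 in GMP and 0.10 in MEP. In MEF it was −0.03 (SE 0.11). Rit1, the substrate, had 15.02, 15.9 and 17.5 CPM in KO CMP and 15.8, 15.7 and 17.5 CPM in WT CMP. Its changes were −0.03 in CMP, −0.02 in GMP, 0.10 in MEP and −0.02 in MEF, each with an SE of 0.12 and an edgeR adjusted p of at least 0.999. The widest 95% interval of the 4 Rit1 changes ran from −0.15 to 0.34.

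**Figure D4:**
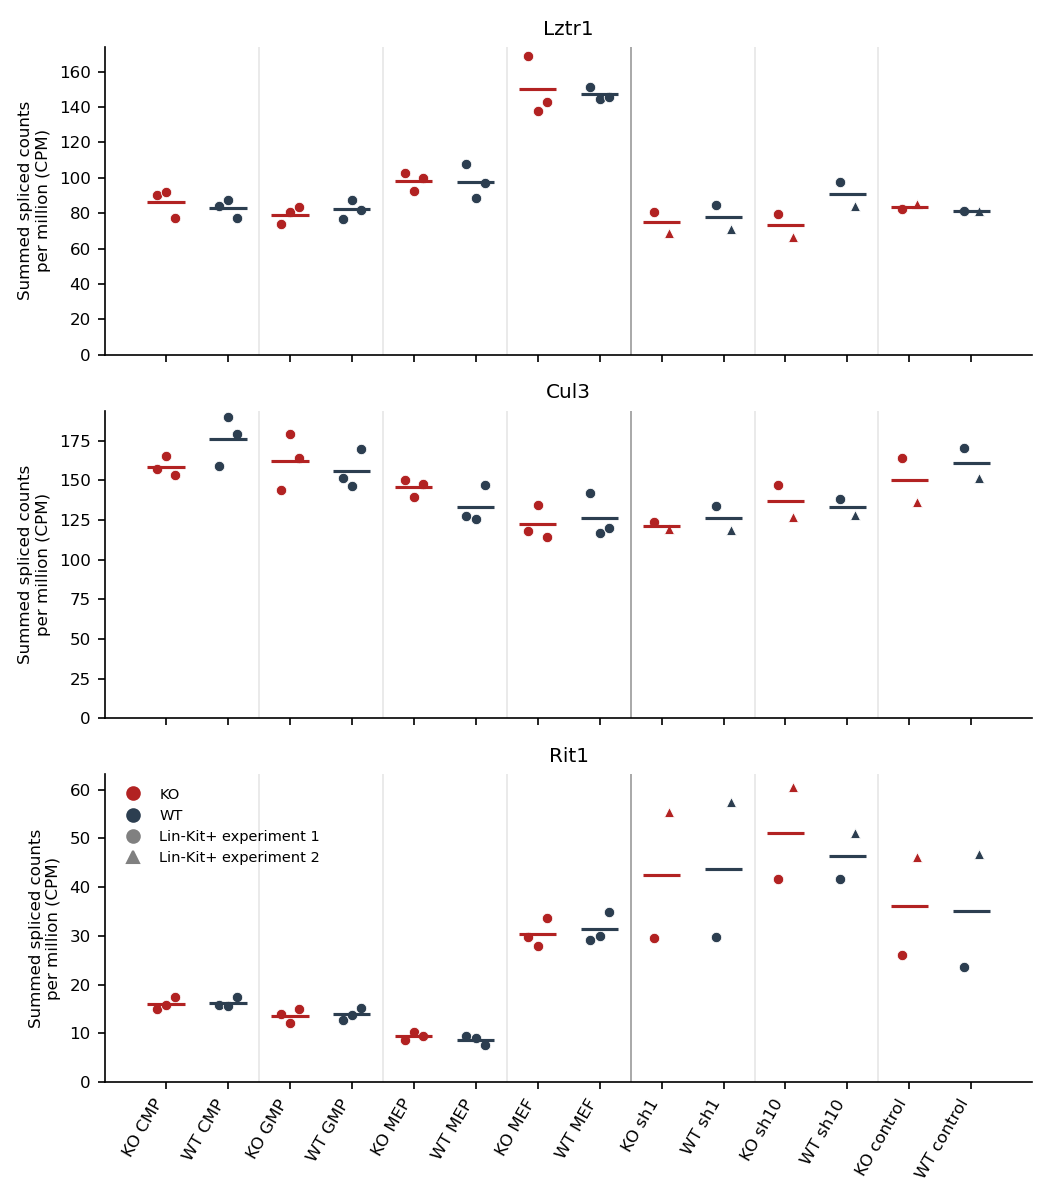
Summed spliced CPM of Lztr1, Cul3 and Rit1 in each library, KO in red and WT in dark blue, group means as lines, and Lin-Kit+ experiments 1 and 2 as circles and triangles. The genotypes overlap in CMP, GMP, MEP and MEF, Lztr1 is highest in MEF at 138.0 to 168.8 CPM, and Rit1 reaches at most 17.5 CPM in precursors and parts by experiment in Lin-Kit+ cells.

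Between WT cell types, all 3 genes differed in MEP. Rit1 was lowest in MEP, with 9.55, 9.06 and 7.58 CPM in WT MEP, against 12.7, 13.7 and 15.3 CPM in WT GMP and 15.8, 15.7 and 17.5 CPM in WT CMP. None of the 3 groups overlapped another. Its MEP-minus-CMP log2 change was −0.77 (SE 0.12; edgeR adjusted p = 8.07e-05), and MEP minus GMP gave −0.67 (SE 0.12; edgeR adjusted p = 2.78e-04). Lztr1 was higher in MEP, with 107.6, 88.5 and 97.0 CPM in WT mice, against 84.0, 87.4 and 77.1 CPM in WT CMP and 76.8, 87.5 and 82.0 CPM in WT GMP. Its changes were 0.37 over CMP (SE 0.08; edgeR adjusted p = 0.00112) and 0.25 over GMP (SE 0.08; edgeR adjusted p = 0.0181).

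Cul3 was lower in MEP, with 127.6, 125.5 and 147.1 CPM in WT mice, against 159.2, 190.1 and 179.0 CPM in WT CMP. Its changes were −0.26 over CMP (SE 0.09; edgeR adjusted p = 0.0197) and −0.22 over GMP (SE 0.09; edgeR adjusted p = 0.0473). Such calls were common: 46.7% of all genes were called between WT MEP and CMP, 45.8% between MEP and GMP, and 24.8% between GMP and CMP, where no member was called. The Cul3 calls were lost without WT CMP replicate 2 (adjusted p = 0.164), WT CMP replicate 3 (0.081), WT MEP replicate 1 (0.0878 and 0.176), WT MEP replicate 2 (0.0712 and 0.141), or WT GMP replicate 1, 2 or 3 (0.0704, 0.0509 and 0.182) in edgeR. The Lztr1 call over GMP was lost without WT GMP replicate 1 (adjusted p = 0.0847), WT GMP replicate 3 (0.0574) or WT MEP replicate 1 (0.0843) in edgeR. TMM factors moved the changes over CMP by 0.134 to 0.138, and from library totals alone the MEP-minus-CMP changes were 0.24 for Lztr1, −0.40 for Cul3 and −0.90 for Rit1, in the same directions.

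Retention of intron 18 was lower in WT MEP than in the other WT precursors, without passing adjustment. WT MEP libraries had 6.44% to 6.77%, below the 9.42% to 21.4% of WT CMP and the 7.32% to 14.6% of WT GMP in Lztr1 intron 18. The MEP-minus-CMP change was −1.29 (SE 0.46, −2.19 to −0.40; edgeR adjusted p = 0.0701), in a comparison in which 0.629% of introns were called. The call was made without WT CMP replicate 2 (−1.67, edgeR adjusted p = 0.0391) and with reads of the 5′ end alone (−2.10, adjusted p = 0.0437). Leaving out single libraries also took the change down to −0.98 in size, with an edgeR adjusted p of up to 0.306. MEP minus GMP gave −0.67 (edgeR adjusted p = 0.787), where 0.48% of introns were called, and GMP minus CMP gave −0.62 (edgeR adjusted p = 0.839), where 0.0817% were called.

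**Figure D5:**
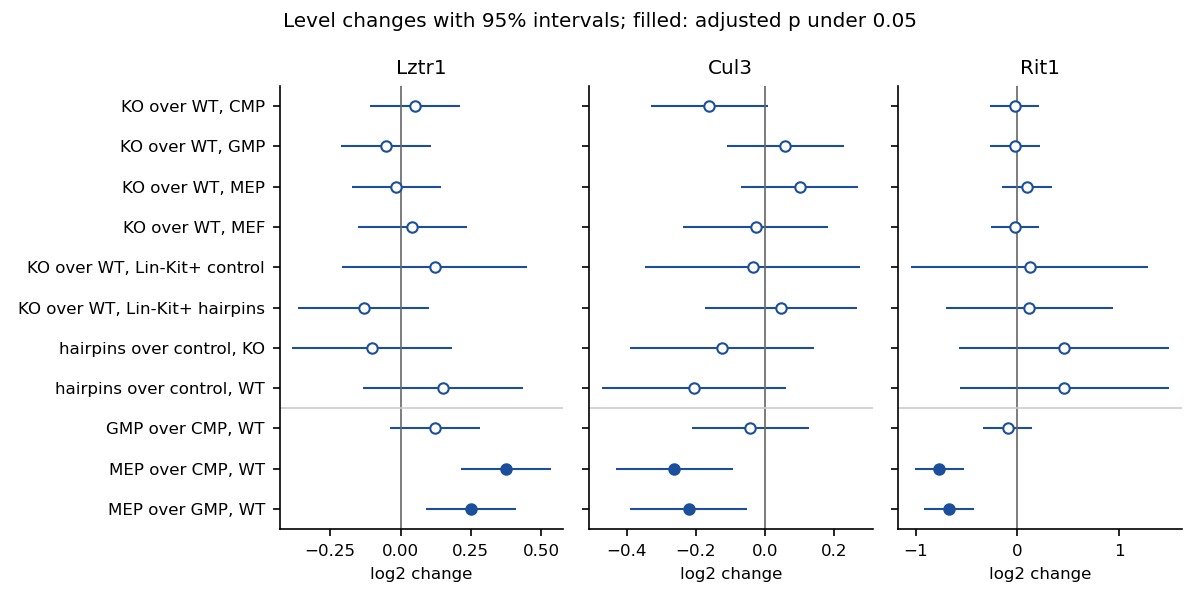
Log2 changes of Lztr1, Cul3 and Rit1 levels with 95% intervals in each comparison, with filled points for an edgeR adjusted p under 0.05 in fits without a block. KO and hairpin comparisons hold open points only, and the filled ones are the WT MEP comparisons, at 0.37 and 0.25 for Lztr1, −0.26 and −0.22 for Cul3 and −0.77 and −0.67 for Rit1.

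Across all 14 groups, MEF stood alone at the top for Lztr1, at 138.0 to 168.8 CPM in single libraries, above every other library of the series, which reached 107.6 CPM. The other 12 groups formed a run from 73.2 CPM in KO Lin-Kit+ cells with sh10 to 98.4 CPM in KO MEP, in which each group overlapped its neighbours. For Cul3, neighbours overlapped along the whole order, from 121.4 CPM in KO cells with sh1 to 176.1 CPM in WT CMP. For Rit1 the order ran MEP, GMP, CMP, MEF and Lin-Kit+ cells, from 8.73 CPM in WT MEP to 51.1 CPM in KO cells with sh10. MEP did not overlap GMP, and CMP did not overlap MEF or Lin-Kit+ cells. Per listed intron, WT CMP had 11.7 CPM for Cul3, 3.94 CPM for Lztr1 and 2.72 CPM for Rit1. This scale compares genes only roughly, since it also divides by the intron that skips an exon. That intron held 319 spliced reads over all libraries for Cul3, 2832 for Lztr1 and 101 for Rit1. The library kit differed between Lin-Kit+ cells and the other cells.

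In Lin-Kit+ cells Rit1 was higher with Zrsr1 hairpins in every matched pair, and higher in experiment 2 than in experiment 1 in every group. In experiment 1, Rit1 had 29.6 CPM with sh1 and 41.6 CPM with sh10 in KO cells, against 26.0 CPM with the control hairpin. In WT cells of experiment 1 it had 29.8 CPM with sh1 and 41.7 CPM with sh10, against 23.7 CPM with the control. In experiment 2, KO cells had 55.3 CPM with sh1 and 60.5 CPM with sh10, against 46.2 CPM with the control, and WT cells had 57.5 CPM with sh1 and 51.2 CPM with sh10, against 46.7 CPM with the control. The 8 log2 differences of CPM within experiments ran from 0.13 to 0.82, and TMM factors raise them.

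Without a block for the experiment, the Rit1 change with hairpins was 0.46 in KO cells (SE 0.53; edgeR adjusted p = 0.908) and 0.46 in WT cells (SE 0.53; edgeR adjusted p = 0.958), and 0% of genes were called, with 1285 and 1325 at an unadjusted edgeR p under 0.05 and 391 and 392 called by DESeq2. With the replicate block it was 0.47 in KO cells (SE 0.14; edgeR adjusted p = 0.0673) and 0.51 in WT cells (SE 0.14; edgeR adjusted p = 0.04998), and 1604 and 1560 of 17828 genes were called. KO cells with hairpins over WT cells with control gave 0.59 with the block (SE 0.14; edgeR adjusted p = 0.0221) and 0.58 without it (SE 0.53; edgeR adjusted p = 0.810), with 2089 genes called with the block. Between the genotypes the hairpin effect on Rit1 differed by −0.0019 (SE 0.73; edgeR adjusted p = 0.9999). The stem and granulocyte-monocyte marker sums given above moved in the same libraries, and their part in the Rit1 values was not tested.

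Cul3 was lower with Zrsr1 hairpins in all 8 matched pairs, by log2 differences of CPM of −0.41 to −0.10, and was not called. TMM factors raised the Cul3 changes with hairpins by 0.0916 in KO cells and 0.107 in WT cells, and both stayed negative. Its change was −0.12 in KO cells (SE 0.14; edgeR adjusted p = 0.9001) and −0.21 in WT cells (SE 0.14; edgeR adjusted p = 0.831), and with the replicate block the adjusted p were 0.467 and 0.215.

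Lztr1 had 80.6 and 69.1 CPM with sh1 and 79.6 and 66.7 CPM with sh10 in KO cells of experiments 1 and 2, against 82.3 and 85.1 CPM with the control hairpin. In WT cells it had 84.4 and 71.1 CPM with sh1 and 97.7 and 83.9 CPM with sh10, against 81.1 CPM with the control hairpin in both experiments. KO and WT values did not overlap with sh10 or with the control hairpin, and lay in opposite order there. Each group held only 2 libraries, and the share of all genes without overlap was not computed. The Lztr1 change with hairpins was −0.10 in KO cells (SE 0.14) and 0.15 in WT cells (SE 0.15), with edgeR adjusted p of 0.938 and 0.927. These fits had no block for the experiment, and neither change was called in any setting, with the block included. KO cells with hairpins minus WT cells with hairpins gave −0.13 for Lztr1 (SE 0.12), 0.05 for Cul3 (SE 0.11) and 0.12 for Rit1 (SE 0.42), and KO minus WT with the control hairpin gave 0.12, −0.04 and 0.12. No member was called in either, nor was any gene, with 346 and 158 genes at an unadjusted edgeR p under 0.05 and 25 and 24 called by DESeq2.

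The rest of the pathway was read from lists of other genes, and the genes named from them were chosen for their roles after their values were seen. Among RAS-family GTPases other than Rit1, 11 of 12 were tested in precursors and 0 were called in a KO or hairpin comparison. Between KO and WT CMP the median of the 11 genes was −0.14, and the median of all 17563 genes was 0. Between WT MEP and CMP, 1 of the 11 was higher and 5 were lower, where 21.2% and 25.5% of all genes were called in these directions. The higher one was Hras, with a change of 0.93 (SE 0.13; edgeR adjusted p = 1.62e-05). Nras was lower in WT GMP than in WT CMP, with a change of −0.27 (edgeR adjusted p = 0.0181).

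The core of CUL3 ligases and the enzymes that attach or remove NEDD8 differed in MEP. Of 18 tested genes, 12 were higher and 2 lower in WT MEP than in WT CMP, with a median of 0.35 against −0.05 over all genes, of which 21.2% and 25.5% were called in these directions. Over WT GMP 11 were higher and 0 lower, where 21.1% and 24.8% of all genes were called in these directions. Rbx1, the RING subunit, changed by 0.41 over CMP (edgeR adjusted p = 0.00203), while Cul3 itself was lower in MEP. Of 26 tested BTB adaptors, 5 were higher and 8 lower over CMP, where 21.2% and 25.5% of all genes were called in these directions. Among them Keap1, the adaptor of NRF2, changed by 0.47 (edgeR adjusted p = 0.0211) and Spop, the adaptor of several nuclear substrates, by −0.53 (edgeR adjusted p = 7.73e-08).

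Regulators and targets of the RAS to ERK pathway were not called by genotype or hairpin in edgeR without a block. Of 15 RASopathy regulators, 0 were called in any KO or hairpin comparison, and 2 were higher and 3 lower in WT MEP than in WT CMP, against the same 21.2% and 25.5% of all genes. Of 15 feedback and target genes of ERK, 13 were tested in precursors and 12 in Lin-Kit+ cells, again with 0 called by genotype or hairpin. In KO Lin-Kit+ cells their median change with hairpins was 0.57, with 9 of 12 positive, and in WT cells it was −0.19, with 4 of 12 positive, against −0.01 and −0.03 over all genes. Their summed CPM in KO cells was 122.4 to 133.8 with the control hairpin, 130.9 to 132.4 with sh1 and 122.2 to 130.6 with sh10. In WT cells the sums were 104.8 to 196.5, 118.9 to 175.3 and 88.6 to 90.5 in that order. Of the 14 genes with listed introns, 2 had no spliced read in KO cells with the control hairpin. None of the 5 pathway lists had a called member in a KO or hairpin comparison of edgeR without a block, where at most 0.0456% of all genes were called. The lists were not read in the fit with the replicate block. That fit called 1604 genes with hairpins in KO and 1560 in WT Lin-Kit+ cells, so an effect of hairpins on these lists stays undecided.

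Genes whose mean CPM over the 14 groups ordered most like that of a member were found by Spearman's rho among 10611 genes. They were Prrc2b (0.93), 2310022B05Rik (0.91) and Cdh11 (0.91) for Lztr1, Nsrp1 (0.95), Cdca2 (0.94) and Brip1 (0.94) for Cul3, and Lgals3 (0.996), Aldh3a2 (0.991) and Cap1 (0.991) for Rit1. Among 12063 introns, the group means of the log2 ratio of intron 18 were among the most like those of an intron of Npas1 (chromosome 7, 16456305 to 16459185; Pearson r = 0.92) and an intron of Tln1 (chromosome 4, 43556784 to 43562129; 0.89). The groups share library kits and depth within a cell type, so these values describe likeness across these 14 groups only.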

How the data were processed

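Polyadenylated RNA was sequenced by the authors in 36 libraries, and the tables they deposited list 219945 introns on mm10 (per the submitters' processing notes). Aligner, counter and use of strand: not given in the sources used here. Per the file headers, each table gives counts of reads across the 2 exon-intron boundaries and of spliced reads. The deposited fraction is the share of the intron covered. The deposited percent is the MSI, and recomputing it from the counts gave the same values. All listed introns matched GENCODE M21, 1887 of them in more than 1 gene.

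Computed here: spliced counts were summed per gene and tested with edgeR 4.0.16 (R 4.3.3; quasi-likelihood, TMM, filterByExpr). Introns were tested with edgeR's diffSpliceDGE on exon-intron against spliced reads. The effect size and SE are the limma 3.58.1 difference of log2((exon-intron + 0.5)/(spliced + 0.5)). P-values were Benjamini-Hochberg adjusted over all features tested, with a threshold of 0.05. Precursors, MEF and Lin-Kit+ cells were fitted separately. On simulated data the edgeR intron test was liberal, and limma kept its nominal rate. CPM divides by the summed spliced reads of a library, without TMM factors. Intervals are 95% intervals of the change, taken from its SE by a normal approximation in fits without a block. The SE rests on the spread between libraries, and with so few libraries the intervals may be too narrow.

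In Lin-Kit+ cells the labels name the experiment. Deviations from group means correlated by 0.304 to 0.397 within an experiment, so experiments pair these libraries. Same-numbered KO and WT precursors (−0.0051 to 0.105) and MEF (−0.0767 to 0.380) were not treated as paired, and the 3 precursor types of a mouse pair by animal (−0.0404 to 0.087). Depth was 44083233 to 84832431 spliced reads (precursors), 43514139 to 61124920 (MEF) and 30481450 to 43345548 (Lin-Kit+ cells). No libraries held identical values.

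The genes and lists were chosen with earlier results of these data known, and the members, Zrsr2, and the most alike genes were named by rule. DESeq2 1.42.0, other filters, pseudocounts and intron ends, blocks and leaving out libraries were tried as alternatives. Intron sequences were read from GENCODE M21 transcripts, and bases no transcript covers were not used here. Values of 1 further listed gene and 1 further alike intron are not reported here.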

Additional observations from a re-analysis of the deposited data

Results flagged for a closer look

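The change of Lztr1 intron 18 with Zrsr1 hairpins differed between genotypes by 2.46 on the log2 ratio scale (SE 1.37, 95% interval −0.22 to 5.15; edgeR adjusted p = 0.999 over 46630 introns). It was marked because all 4 hairpin-minus-control differences were positive in KO cells (0.01 to 1.43) and all 4 were negative in WT cells (−2.31 to −0.74). The hairpins of an experiment share a control library, and the smallest KO difference, that of sh10 in experiment 1, was 0.01. With reads of the 5′ end alone the fitted change in WT cells was 0.79, so the opposite signs were not kept there. No group held 4 libraries, so single libraries were not screened for values far from the rest.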

How the results depend on the processing

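Of the alternative values of intron 18, 141 kept direction and call, 16 changed sign and 2 passed the threshold; of those of gene levels, 319 kept both, 35 changed sign, 2 passed and 16 no longer did. The cause was not tested. With 5′ end reads alone intron 18 turned to 0.79 for hairpins in WT cells, −0.12 for KO in GMP and 1.03 for KO with the control hairpin, and with 3′ end reads alone to −0.074 for KO hairpins against WT control and −0.0163 for the permutation sum. Levels from the median count per intron turned to 0.014 for Cul3 in KO MEF, for Lztr1 to 0.0763 (hairpins in KO), −0.0613 (KO, control hairpin), 0.0019 (KO, hairpins) and 5e-04 (KO MEP), and for Rit1 to −0.0265 (KO, control hairpin), −0.012 (KO, hairpins) and 0.0114 (KO MEF). Without intron 18 in the sum, Lztr1 in KO MEP was 8e-04. With the replicate block the Rit1 hairpin changes of 0.51 in WT cells and 0.59 over WT control were called; no other call on a member changed with a block by replicate, experiment or mouse.

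Leaving out single libraries gave, for intron 18, −0.10 to 0.47 (KO GMP), −1.19 to 0.12 (KO, control hairpin), −0.18 to 0.65 (KO hairpins against WT control) and −0.208 to 0.110 (permutation sum). For Lztr1 it gave −0.0018 to 0.13 (KO CMP), −0.094 to 0.0065 (GMP), −0.0653 to 0.0349 (MEP), −0.0503 to 0.0954 (MEF), −0.0225 to 0.25 (control hairpin), −0.23 to 0.0429 (hairpins in KO) and −0.0398 to 0.0828 (KO hairpins against WT control). For Cul3 it gave −0.0114 to 0.13 (GMP), −0.10 to 0.0646 (MEF) and −0.0028 to 0.0916 (KO, hairpins). For Rit1 it gave −0.0879 to 0.0294 (CMP), −0.0862 to 0.0632 (GMP), −0.10 to 0.0621 (MEF), −0.50 to 0.78 (control hairpin) and −0.21 to 0.45 (KO, hairpins). None of these was called.

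The Cul3 call of MEP over CMP was lost with the median per intron (−0.29, edgeR adjusted p = 0.0834), that over GMP also without the filter (adjusted p = 0.142 and 0.180), and the Lztr1 call over GMP with the median (adjusted p = 0.0577). Over settings, KO calls ran from 1 to 50 genes in CMP, where edgeR called 4, 1 to 21 in GMP, 2 to 80 in MEP and 0 to 12 in MEF, and hairpin calls from 0 to 1560 in WT and 0 to 1604 in KO cells, DESeq2 or the block being highest. Called introns ran from 0 to 23 in KO CMP, 0 to 11 in KO MEP, 0 to 19 between genotypes with hairpins, 122 to 491 for WT MEP over GMP, and for WT MEP over CMP 197 with limma against 393. Each Lin-Kit+ experiment alone and scaling by library totals were added after seeing the data; by totals, Lztr1 in KO hairpins against WT control was −0.13, against 0.02 with TMM. Depth limits intron 18 most in the second experiment, with 6 to 39 exon-intron reads a library.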
